A study of Mus musculus with 58 samples.

Results

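The measure described here is the parental allele ratio of single genes in mouse morulae, embryos of the late cleavage stage, whose mothers' oocytes lacked Pcgf1 and Pcgf6. Their products are alternative core subunits of Polycomb repressive complex 1 (PRC1). For each gene and library, reads assigned to the paternal allele were set against reads assigned to the maternal allele, and the ratio was compared between 2 maternal knockout (matKO) and 2 control (CTR) libraries. The members are the 6445 autosomal genes, of 24077 genes in the count table, that had at least 20 allele reads in each of these 4 libraries. Of the other genes, 16543 were autosomal with fewer reads in a library, 1068 lay on the X or Y chromosome and 21 had no matched chromosome.

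The CTR morulae are labelled wild type and the matKO morulae carry the maternal double knockout of Pcgf1 and Pcgf6. All 4 morula libraries share the strain label B6.129 x PWK, the mother being B6.129 and the father PWK, so each embryo has a wild-derived paternal genome in both groups. The sources used here give neither the promoter that drives the deletion in oocytes nor the number of embryos in a library, nor whether replicates came from separate mothers, so p-values measure only the spread between these libraries. Extraembryonic ectoderm (ExE), a trophoblast tissue of the later embryo, with the same cross (2 CTR and 4 matKO libraries), and fully grown oocytes (FGO) of B6.129 females (2 CTR and 2 knockout, KO, libraries) were read only for comparison.

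Most autosomal genes are read from both parental chromosomes. Imprinted genes are not: one group is silenced on the maternal copy by DNA methylation laid down in the oocyte, and another, the non-canonical group, by histone H3 lysine 27 trimethylation (H3K27me3) inherited from the oocyte. PRC1 with PCGF1 or PCGF6 ubiquitinates histone H2A, a mark that lies on much of the same chromatin as H3K27me3. A ratio tells which allele contributes more reads; it does not tell how much RNA there was in all.

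The targeted genes were read first. In FGO, Pcgf1 had 37080 and 28293 counts in CTR and 767 and 452 in KO, and Pcgf6 had 10434 and 11024 in CTR and 3893 and 4352 in KO. In morulae Pcgf1 had at most 4 allele reads in any library and was no member. Pcgf6 had 210 and 218 maternal reads in CTR against 130 and 110 in matKO, while its paternal reads were 124 and 161 against 149 and 159. Its paternal share was thus 37.1% and 42.5% in CTR and 53.4% and 59.1% in matKO, with no overlap, and its log2 shift of 0.91 ± 0.18 (SE) towards the paternal allele had an adjusted p of 0.379. In ExE the same gene shifted by 1.26 towards the paternal allele with an adjusted p of 1.92e-05. Here a shift is the log2 change, matKO over CTR, of the paternal to maternal ratio; positive is towards paternal, and p-values come from edgeR with Benjamini-Hochberg adjustment over all genes tested.

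Allele reads numbered 1299715 to 1685510 per morula library, and members held 95.07% to 96.3% of the autosomal ones. A member had a median of 162 and 145 reads in CTR and 113 and 118 in matKO. Of the 25 pluripotency genes 21 had allele reads in morulae, Nanog among them with 228 to 368 reads per library; Pou5f1 was listed at 0 in all 4 libraries, as were 3 other pluripotency genes. Of 27 cumulus and granulosa cell genes, 18 were at 0, Fshr, Cyp19a1 and Amh among them. The other 9 had allele reads, among them Serpine2 with 312 to 802 per library and Amhr2 with 83 to 157. A gene whose reads cover no difference between the parental strains is also listed at 0, so these zeros do not show absence. The libraries had no molecular identifiers, so several reads can stem from 1 molecule and the intervals given below are for counting error alone.

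Over all autosomal genes the balance of the alleles was close in the 2 groups. The paternal share of all autosomal allele reads was 48.6% ± 0.035 (SD, n = 2) in CTR and 49.3% ± 0.366 (SD, n = 2) in matKO, a difference of 0.684 percentage points. The 2 matKO libraries, at 49.0% and 49.5%, both lay above the 2 CTR libraries, but 2 against 2 cannot give an exact two-sided permutation p below 0.333, which was the value found. The median shift over members was 0.012, and 23.09% of members had a shift of over 0.5 in size, 6.98% over 1 and 1.12% over 2.

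At an adjusted p under 0.05 the test called 1 gene towards paternal (0.0155% of members) and 0 towards maternal (0.0%). Without the adjustment, edgeR put 249 members (3.86%) below 0.05 towards paternal and 208 (3.23%) towards maternal, 7.09% in all. DESeq2's Wald test called 4 towards paternal and 2 towards maternal, and limma on log ratios called none in either direction. The single call, Lsm4, was lost when any 1 of the 4 libraries was left out. In 1511 members (23.4%) both matKO shares lay above both CTR shares, and in 987 (15.3%) both lay below. These percentages are the background against which the gene groups are read.

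**Figure D1:**
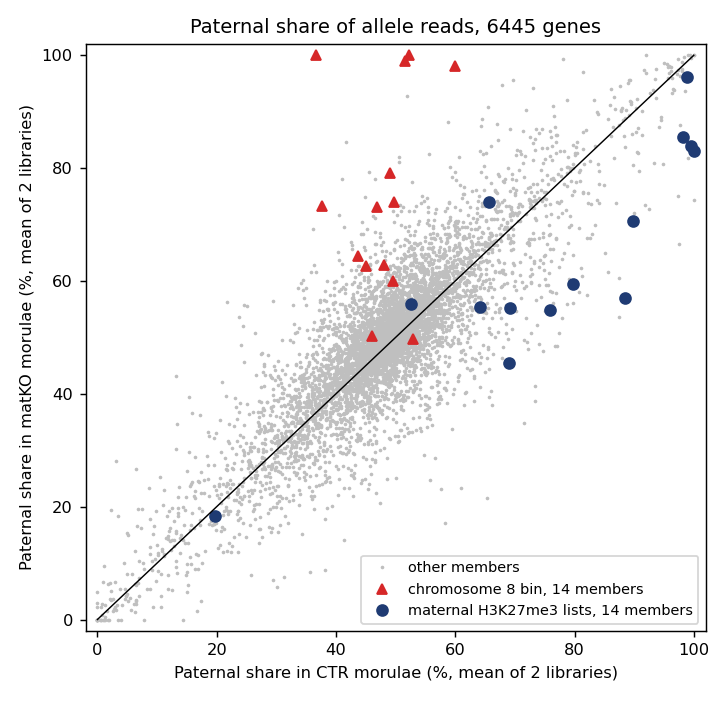
Mean paternal share (%) of each member in the 2 CTR libraries (horizontal) against the 2 matKO libraries (vertical); the line marks equal shares. Most of the 6445 genes lie around the line, the 14 members of 1 bin of chromosome 8 lie mostly above it, and 11 of the 14 members of the maternal H3K27me3 lists lie below it without overlap of their libraries.

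Genes reported to carry the non-canonical imprint lay mostly on the maternal side, although none passed the adjusted test. Of the 5 genes whose imprint is reported to last after implantation, all 5 were members and 4 had both matKO shares below both CTR shares, against 15.3% of all members. Their median shift was -1.46, which is Jade1's own value, against 0.012 over all members. Of the 4, Slc38a4 separated on only 2 and 0 maternal reads in CTR and 2 and 1 in matKO. Of 25 further reported genes in the count table, members numbered 9; 7 of them had lower shares in both matKO libraries and the median shift was -1.41. In both lists together 9 members had an unadjusted p under 0.05 towards maternal and 0 towards paternal. These lists were drawn up with earlier results of these data known and are no independent evidence of a direction.

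Sfmbt2, a Polycomb-group gene needed in the placenta, was read almost wholly from the paternal allele in CTR. Maternal reads were 1 and 0 in CTR and 11 and 19 in matKO; paternal reads were 124 and 167 in CTR and 53 and 109 in matKO. Its paternal share was therefore 99.2% and 100.0% in CTR and 82.8% and 85.2% in matKO. With 1 maternal read in CTR the ratio can be bounded only widely: in matKO it was 0.0187 of the CTR ratio, with a 95% exact conditional interval of 0.000453 to 0.114. The adjusted p was 0.148, and the gene passed the threshold only where no read minimum was set.

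Jade1, a subunit of a histone acetyltransferase complex, had a similar paternal level and more maternal reads in matKO. Maternal reads were 30 and 31 in CTR and 56 and 76 in matKO, and paternal reads 117 and 122 in CTR and 92 and 100 in matKO. The paternal share stood at 79.6% and 79.7% in CTR and at 62.2% and 56.8% in matKO. The shift was -1.46 ± 0.25 with an adjusted p of 0.268. On the scale of single-allele levels, the maternal allele's log2 difference was 1.44 (adjusted p = 0.14) and the paternal allele's was -0.03.

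Gab1, a docking protein in receptor tyrosine kinase signalling, had a paternal share of 68.3% and 60.2% in CTR and 52.7% and 58.2% in matKO, a narrow separation (shift -0.55 ± 0.20, adjusted p = 0.692). Slc38a4, an amino acid transporter, remained almost wholly paternal: 2 and 0 maternal reads in CTR and 2 and 1 in matKO stood against 82 and 82 paternal reads in CTR and 38 and 37 in matKO. Its ratio in matKO was 0.307 of that in CTR, with an exact conditional interval of 0.0251 to 2.73. Smoc1, a secreted calcium-binding protein, was the exception among the 5, with shares of 70.0% and 61.3% in CTR and 80.0% and 68.0% in matKO that overlapped; it rested on 20 to 31 reads per library.

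Among the further H3K27me3 genes Bbx, an HMG-box gene, had the most reads. Its maternal reads were 62 and 20 in CTR and 215 and 293 in matKO, and its paternal reads 329 and 260 in CTR and 341 and 326 in matKO. The paternal share was 84.1% and 92.9% in CTR and 61.3% and 52.7% in matKO, so that the alleles came close to balance in 1 matKO library. The shift was -2.52 ± 0.38 with an adjusted p of 0.265 in edgeR and 0.00128 in DESeq2. The 3 other members of Bbx's neighbourhood, within 2.5 Mb of it, had a median shift of -0.04.

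Epas1, a hypoxia-inducible transcription factor, had paternal shares of 72.5% and 79.1% in CTR and 55.5% and 54.2% in matKO. Rbp2, a retinol-binding protein, stood at 92.3% and 87.5% against 76.3% and 64.8%. Rbms1, an RNA-binding protein, stood at 63.5% and 74.4% against 45.8% and 45.2%. These 3 genes had shifts of -1.39 ± 0.26, -1.92 ± 0.43 and -1.41 ± 0.38, with adjusted p of 0.347, 0.44 and 0.521. Runx1, a transcription factor of blood formation, had no maternal read in CTR and 3 and 11 in matKO, beside 30 to 55 paternal reads per library. Slc38a1, a relative of Slc38a4, had 0 and 3 maternal reads in CTR and 6 and 4 in matKO. Of the remaining members, Enc1 leaned to maternal without overlap, while Hes1, a Notch target, and Rftn2 overlapped.

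Gm13261, a gene model that begins upstream of Sfmbt2 on chromosome 2 and was chosen after its values were seen, had 0 and 0 maternal reads in CTR and 21 and 14 in matKO. With CTR at a floor of 3 reads over the group, its ratio was at least 15.4-fold lower in matKO. The read assignment does not say whether the same reads could count for both genes. The 7 members within 2.5 Mb of Sfmbt2, Gm13261 included, had a median shift of -0.04, and 2 of them had matKO shares below both CTR shares.

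**Figure D2:**
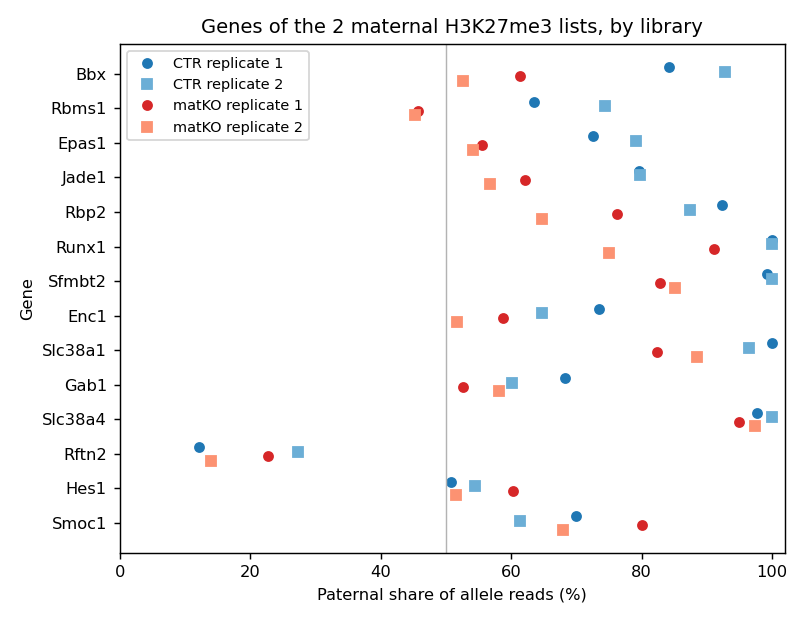
Paternal share (%) of the 14 members of the maternal H3K27me3 lists, 1 row per gene and 1 point per library, ordered by the difference of the group means. In 11 genes both matKO points lie to the left of both CTR points; Smoc1, Hes1 and Rftn2 overlap.

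Start-site windows of Sfmbt2 and Gab1 are shown, 1 gene read almost wholly from the paternal allele in CTR and 1 read from both. The dinucleotide CG was counted, which reads the same on both strands. RefSeq windows (GRCm38.p6) exist for 5199 of 6445 members, and for 4 of the 5 genes with the lasting imprint. In the 250 bases before a start, the median number of CG was 18, and 99.5% of members' windows held at least 1. Sfmbt2 has 2 listed starts with 8 and 15 CG, Gab1 has 2 overlapping ones with 24 and 25, Slc38a4 has 3 with 3, 5 and 5, and Jade1 has 4 with 6 to 35. Of members' windows, 88.1% and 63.8% held as many as the Sfmbt2 windows and 27.4% as many as the first of Gab1. They are printed 5′ to 3′ on the gene's own strand with each CG in capitals, the first at chr2:10370201-10370450 (+), the next at chr2:10372186-10372435 (+) and Gab1's at chr8:80880520-80880769 (-). The counts do not say which start was used.

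Sfmbt2, first start: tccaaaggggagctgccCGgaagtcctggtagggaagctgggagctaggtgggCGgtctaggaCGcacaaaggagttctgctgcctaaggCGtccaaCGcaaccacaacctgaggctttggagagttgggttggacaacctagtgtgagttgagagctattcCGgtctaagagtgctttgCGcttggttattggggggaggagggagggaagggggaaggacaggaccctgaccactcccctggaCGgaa
Sfmbt2, next start: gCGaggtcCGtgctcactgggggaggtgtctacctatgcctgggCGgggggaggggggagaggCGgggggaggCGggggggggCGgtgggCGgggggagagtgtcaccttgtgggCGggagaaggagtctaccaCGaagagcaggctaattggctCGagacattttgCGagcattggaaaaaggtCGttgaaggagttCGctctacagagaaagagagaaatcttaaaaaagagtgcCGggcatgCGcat
Gab1: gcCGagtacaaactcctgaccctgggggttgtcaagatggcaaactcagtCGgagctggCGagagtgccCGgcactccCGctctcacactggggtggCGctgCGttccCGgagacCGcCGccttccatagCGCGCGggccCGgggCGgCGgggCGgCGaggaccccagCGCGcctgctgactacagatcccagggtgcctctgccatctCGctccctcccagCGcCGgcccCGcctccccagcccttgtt

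Genes with classical, DNA methylation imprints were read next. Of 31 paternally expressed genes with DNA methylation imprints in the table, 7 were members, and their median shift was -0.29. Without overlap, 1 lay lower and 1 higher, beside 15.3% and 23.4% of all members. Zrsr1, a splicing factor gene, was read at 100.0% and 99.1% paternal in CTR and at 100.0% and 99.1% in matKO. Zdbf2 stood at 98.5% and 97.5% against 96.7% and 98.6%, and Fkbp6, which also stands in the germ-line list, at 96.1% and 98.1% against 96.7% and 96.5%. Impact stood at 88.3% and 88.1% against 88.8% and 82.4%. Kcnq1ot1, the long non-coding RNA of its domain, lay higher in matKO, at 83.8% and 83.9% against 87.2% and 91.9%, with an adjusted p of 0.755. Sgce, whose alleles were near balance, lay lower, at 47.1% and 54.7% against 31.2% and 43.4% (adjusted p = 0.779).

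Maternally expressed imprinted genes gave 7 members of 33, with a median shift of -0.01. Without overlap, 1 lay lower and 1 higher, beside 15.3% and 23.4% of all members. All 7 were read from both alleles in morulae: Igf2r, Gnas, H13, Nap1l4, Tssc4, Ube3a and Commd1 had paternal shares between 32.3% and 60.0% in CTR. Commd1 was the one below CTR in both matKO libraries, at 35% and 30.0% after 43.9% and 56.8%, from 20 to 57 reads per library. H13 was the one above, at 39.8% and 40.2% after 32.3% and 38.3%.

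Genes that CTR embryos read from 1 allele can be described without a list. At least 90% paternal in both CTR libraries were 48 members. Of these 15 had lower shares in both matKO libraries and 3 had higher ones, beside 15.3% and 23.4% of all members. An unadjusted p under 0.05 was reached by 7, all towards maternal, beside 3.23% of all members in that direction. Beside Gm13261 and, from the H3K27me3 lists, Sfmbt2, Runx1, Slc38a1 and Slc38a4, this set holds Mael, a germ-line gene of the piRNA pathway. Mael stood at 92.3% and 91.3% in CTR and at 66.0% and 81.1% in matKO, with 4 and 4 maternal reads against 16 and 7 (shift -2.05 ± 0.64, adjusted p = 0.617). At most 10% paternal were 77 members, 10 of them lower and 17 higher in both matKO libraries. Since shares near the ends can move mainly one way, and both sets were chosen by the same CTR libraries, these counts are a description.

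A different pattern held the single call. In the 5 Mb bin of chromosome 8 from 70 to 75 Mb (mm10), 13 of 14 members had higher paternal shares in both matKO libraries, against 23.4% of all members. The bin's median share was 47.1% and 49.0% in CTR and 73.3% and 72.0% in matKO, and its median shift of 1.54 was the highest of 302 bins with 8 or more members. On the same chromosome the bin from 80 to 85 Mb had the next highest median shift, 0.90, with 9 of 12 members higher in both matKO libraries and median shares of 41.9% and 48.0% in CTR and 60.9% and 59.1% in matKO. From 65 to 90 Mb, 35 of 58 members were higher without overlap and 24 had an unadjusted p under 0.05 towards paternal. Gab1, which lay towards maternal, begins inside this stretch, and its 9 neighbours within 2.5 Mb had a median shift of 0.34. The region was picked out after its values were seen.

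Lsm4, a subunit of the Lsm ring that binds U6 and decaying RNA, had 95 and 93 maternal reads in CTR and 1 and 1 in matKO. Its paternal reads were 96 and 104 in CTR and 99 and 104 in matKO, so the difference lay in the maternal reads. The paternal to maternal ratio was 95 times that of CTR, with an exact conditional interval of 25.3 to 801, and the adjusted p was 0.0139. The maternal level fell by 6.07 on the log2 scale (adjusted p = 0.024). Lsm4 runs from 70673231 to 70678752 on chromosome 8 (GRCm38.p6).

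Tpm4, a tropomyosin, had 63 and 61 maternal reads in CTR and 0 and 0 in matKO, beside 34 to 37 paternal reads in every library. Its ratio was at least 39.6-fold higher in matKO, with the floor of 3 reads over the group. Fkbp8, an anchored immunophilin, had 25 and 27 maternal reads in CTR and none in matKO, a ratio at least 22.7-fold higher. Mrpl34, a mitochondrial ribosomal protein, had 13 and 19 against 0 and 1. Partial differences lay between them: Rab8a, a small GTPase of membrane traffic, had 302 and 277 maternal reads in CTR and 92 and 85 in matKO, while Cope, a coatomer subunit, had paternal shares of 49.8% and 48.2% against 79.3% and 79.0%. Isyna1, Ccdc124 and Fam32a differed less, with shifts of 0.57, 0.82 and 1.49, while Kxd1 and Mpv17l2, in the same bin, had shifts of 0.20 and -0.19. The maternal level of Tpm4 and Rab8a fell in the test of the maternal allele alone (adjusted p = 0.044 for each).

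**Figure D3:**
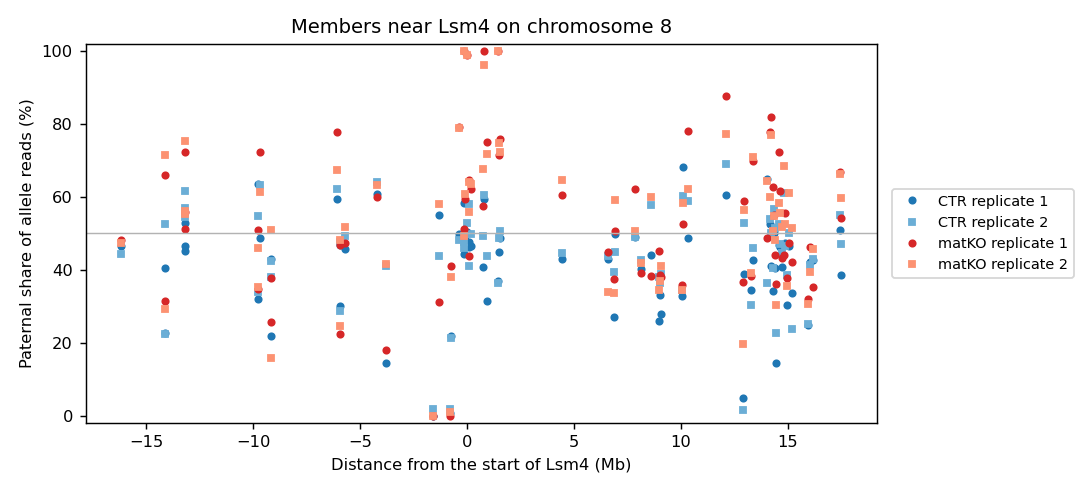
Paternal share (%) of the members within 20 Mb of the start of Lsm4, by distance in Mb, with 1 point per gene and library. Within 2 Mb of Lsm4 the matKO points of 4 genes reach 96.2% to 100.0% while their CTR points lie between 36.5% and 60.4%, and most other genes there separate by less; Mpv17l2, Atp6v1b2, Ndufa13 and Gm10033 overlap.

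The bin was also read in the other stages, in FGO as total expression. In FGO the median log2 difference of the bin's tested members was -0.07, and Lsm4 had 79.7 and 57.8 CPM (counts scaled to the library total) in CTR and 69.7 and 70.4 in KO. In ExE, the 8 members of the bin with enough reads had a median shift of 0.11. Rab8a, Cope and Fam32a had ExE matKO shares of 48.7% to 55.8% outside replicate 3. Lsm4, Tpm4, Fkbp8 and Mrpl34 had no allele read in any of the 6 ExE libraries, nor had Babam1; these are 5 of the bin's 14 members (35.7%), beside 381 (5.91%) of all members. For these 5 genes the stages cannot be compared. Without chromosome 8 from 65 to 90 Mb, an alternative chosen after seeing the data, no member was called in either direction.

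Some stretches stood apart in 1 or 2 libraries across the genotypes. Among 302 bins with 8 or more members, 9 bins with 108 members had a library whose median share lay over 12 points from the median of the 4. On chromosome 11 from 5 to 10 Mb the medians were 60.1% and 99.1% in CTR and 62.5% and 98.2% in matKO, so replicate 2 of both groups was nearly free of maternal reads. On chromosome 12 from 50 to 55 Mb they were 88.7% and 47.8% in CTR and 91.2% and 57.0% in matKO, here with replicate 1 of both groups apart. On chromosome 2 from 140 to 145 Mb only CTR replicate 2 stood apart, at 93.8% against 51.5% to 63.6%; its Snx5, chosen after its values were seen, had 12 maternal reads there against 185 to 263 in the other libraries. The bin of chromosome 8 was the one of the 9 in which both matKO libraries stood apart from both CTR libraries. The maternal strain is labelled B6.129; whether that moves with these stretches was not tested.

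**Figure D4:**
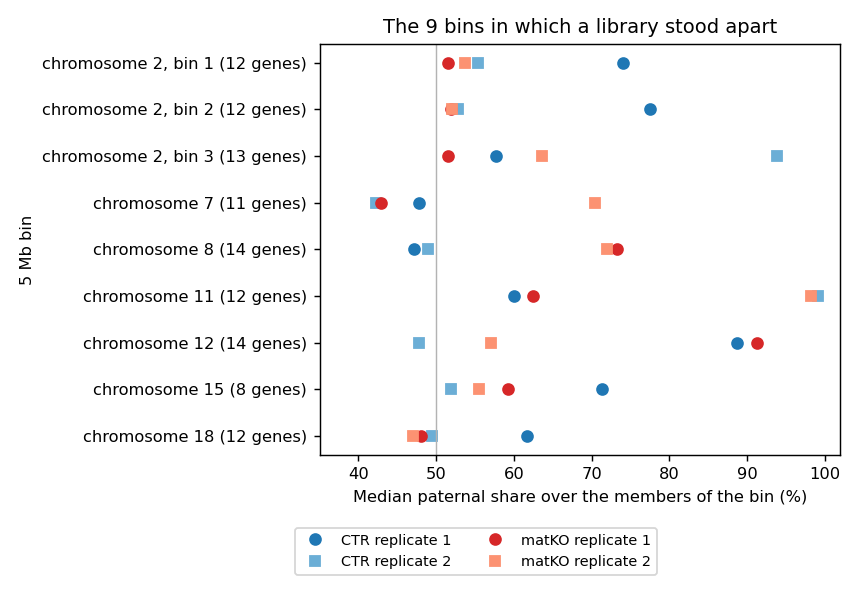
Median paternal share (%) in the 9 bins of 5 Mb in which a library stood apart, with 1 point per library. Colour gives the genotype and shape the replicate; the chromosome 11 and 12 bins separate by replicate, the chromosome 8 bin by genotype.

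Away from the imprinted lists, the members with the smallest p towards maternal differed on the paternal allele, the maternal allele or both. Ptgr1, a prostaglandin reductase, had 386 and 238 paternal reads in CTR and 112 and 109 in matKO, and 470 and 358 maternal reads against 306 and 309. Its paternal share was 45.1% and 39.9% in CTR and 26.8% and 26.1% in matKO (shift -1.09 ± 0.13, adjusted p = 0.148). Sfxn1, a mitochondrial serine transporter, had 64 and 73 paternal reads in CTR and 15 and 23 in matKO, beside 47 and 54 maternal reads against 49 and 78. Its share of 57.7% and 57.5% stood against 23.4% and 22.8% (shift -2.21 ± 0.30, adjusted p = 0.165). The log2 difference of Sfxn1's level was 0.65 on the maternal allele (adjusted p = 0.36) and -1.56 on the paternal allele (adjusted p = 0.074). Asns, asparagine synthetase, had 221 and 262 paternal reads in CTR and 132 and 114 in matKO, beside 112 and 108 maternal reads against 124 and 114. Its share stood at 66.4% and 70.8% against 51.6% and 50.0%, with level differences of 0.45 on the maternal and -0.68 on the paternal allele. Pank3, a pantothenate kinase, stood at 34.8% and 32.7% against 24.4% and 25.7%. In Pank3 the maternal reads were the higher ones in matKO, with 504 and 484 against 383 and 381.

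Over all 208 members with an unadjusted p under 0.05 towards maternal, the paternal level had the larger difference in 134 and the maternal level in 74. Of the 249 towards paternal, the maternal level had the larger difference in 153. Tested one allele at a time, 4 members fell (0.0621%) and 1 rose (0.0155%) on the maternal allele, and 15 fell (0.233%) and 2 rose (0.031%) on the paternal allele. Chka, choline kinase alpha, was the maternal rise, with 141 and 129 reads in CTR and 311 and 273 in matKO; its paternal reads were higher too, so its ratio differed little (shift -0.42). Nin, a centrosomal protein, was a paternal rise, with 28 and 21 reads against 104 and 84. Its maternal reads were higher in matKO too, at 89 and 135 in CTR and 180 and 213 in matKO. Acaa2, a mitochondrial thiolase, and Mtap, a methionine salvage enzyme, were among the paternal falls. All 15 paternal falls had a lower maternal level in matKO as well, so these calls are not specific to the paternal allele. The maternal and paternal log2 differences were -1.42 and -1.37 in Ugdh and -1.22 and -1.20 in Wdr1. In Acaa2 they were -0.39 and -0.94, and in Mtap -0.67 and -2.33. Leaving out CTR replicate 2 left 0 maternal calls, and leaving out CTR replicate 1 or matKO replicate 1 left 0 paternal calls; without CTR replicate 2 there were 108 paternal calls and without matKO replicate 2 there were 49. Scaled to the library size of both alleles together, no paternal level passed.

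**Figure D5:**
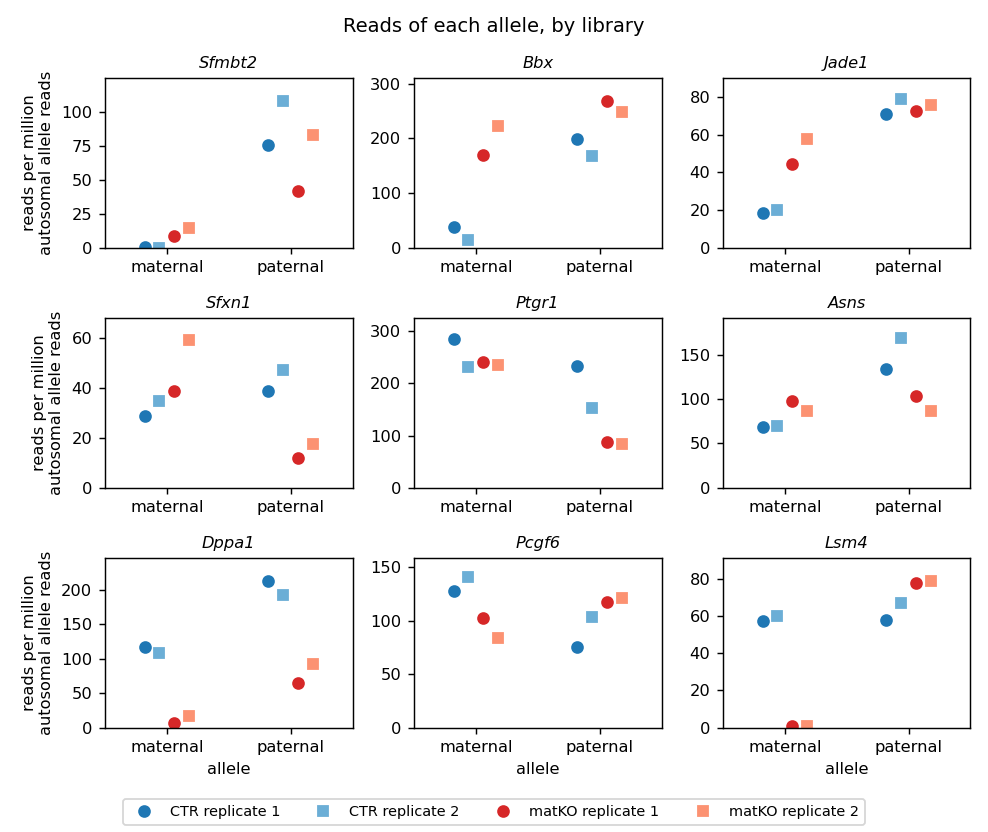
Maternal and paternal levels, scaled to the autosomal allele reads of each library, for 9 members, 1 point per library. In Sfmbt2, Bbx and Jade1 the matKO libraries stand higher on the maternal allele, in Sfxn1 and Ptgr1 lower on the paternal allele, and in Lsm4 lower on the maternal allele.

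Genes of the first lineages were mostly near balance, with a few larger differences. Of 35 trophectoderm genes 21 were members, with a median shift of 0.04. In paternal share 3 were lower and 7 higher without overlap, beside 15.3% and 23.4% of all members. Dppa1, a trophectoderm-enriched gene of the early embryo, had 192 and 168 maternal reads in CTR and 9 and 22 in matKO, and 350 and 298 paternal reads against 82 and 122. The maternal level fell by 3.20 and the paternal level fell by 1.38 on the log2 scale (adjusted p = 0.044 and 0.035), and the paternal share was 64.6% and 63.9% in CTR and 90.1% and 84.7% in matKO (shift 1.83 ± 0.23, adjusted p = 0.148). Id2, an inhibitor of helix-loop-helix factors, stood at 51.5% and 52.8% against 64.3% and 64.6%, and Fgfr2, an FGF receptor, at 51.4% and 63.6% against 65.8% and 69.6%. Krt18, a keratin of this epithelium, fell on the paternal allele by 0.83 (adjusted p = 0.035). Its maternal level was lower by 0.79 (adjusted p = 0.116), and its alleles were balanced, with shares of 50.8% to 54.1% in the 4 libraries.

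The trophectoderm list as a whole summed to 7064 and 6825 CPM of allele reads in CTR and 4684 and 5461 in matKO, while the pluripotency list summed to 3463 and 3933 against 3557 and 4119. Cdx2 had 49 and 45 allele reads in CTR and 9 and 31 in matKO. The list also held genes with more or similar reads in matKO. Hand1 had 24 and 73 in CTR against 126 and 101, and Aqp3 had 176 and 165 against 165 and 159. In bulk libraries fewer cells of a type and less RNA per cell cannot be told apart, and the part of this in the allele ratios was not tested.

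Of 17 primitive endoderm genes 7 were members, 3 lower and 2 higher, beside 15.3% and 23.4% of all members. Lamb1, a laminin chain, stood at 40.0% and 45.8% in CTR and 25% and 18.9% in matKO, but its 15 neighbours within 2.5 Mb had a median shift of -0.76 as well. Sparc, a matrix protein, stood at 62.4% and 57.4% against 79.6% and 78.9%, and Pdgfra, a PDGF receptor, at 45.0% and 42.6% against 62.5% and 62.7%; both had fewer reads of both alleles in matKO. Of 15 pluripotency members 1 was lower and 4 were higher, with a median shift of 0.04; Klf4 stood at 42.4% and 32.8% against 59.3% and 45.9%, Gdf3 at 71.2% and 62.8% against 78.4% and 72.9%, and Tet2 at 50.0% and 46.9% against 38.4% and 45.3%. None of these had an adjusted p under 0.05.

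Transcripts stored in the oocyte can still be maternal in morulae. Of 58 oocyte and maternal-effect genes in the table, 11 were members, with a median shift of -0.07. Of these 2 were lower and 3 higher, beside 15.3% and 23.4% of all members. Tcl1 had 6 and 10 paternal reads in CTR and 1 and 0 in matKO, and Oas1e 14 and 11 against 3 and 5; their maternal reads were 23 to 62 and 75 to 151. Zp3, a zona pellucida gene, was read mainly from the paternal allele and overlapped. Uhrf1, which recruits the maintenance methyltransferase and also stands in the DNA methylation list, was 1 of the 3 higher ones, at 26.8% and 19.7% against 48.3% and 27%, with a gap of under 1 percentage point between the groups (adjusted p = 0.828). The summed level of the list was 1603 and 1713 CPM of allele reads in CTR and 1775 and 1693 in matKO. Split into 4 equal groups by their level in CTR oocytes, members had median shifts of 0.018, 0.03, 0.023 and -0.002 from the lowest group to the highest. In the 4 members of the 2-cell list, Eif1a, Eif1ad and Pramel6 among them, shifts ran from -0.08 to 0.56.

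Germ-line genes reported as PCGF6 targets gave 21 members of 48, with a median shift of 0.01. Of these 4 were lower and 7 higher, beside 15.3% and 23.4% of all members. Ddx4, the vasa helicase, had 49 and 88 maternal and 6 and 23 paternal reads in CTR, and 129 and 144 maternal and 97 and 63 paternal reads in matKO. Its paternal share was 10.9% and 20.7% in CTR and 42.9% and 30.4% in matKO (shift 1.45 ± 0.45, adjusted p = 0.612). Tdrd12, a piRNA pathway gene, went the other way, at 74.2% and 54.5% against 42.6% and 50.6%.

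Among PRC1 subunits 20 of 41 were members, with a median shift of 0.12 beside 0.012 over all members. Of the 20, 10 were higher in paternal share without overlap and 2 lower, beside 23.4% and 15.3% of all members. At an unadjusted p under 0.05 in edgeR, 2 of them lay towards paternal and 0 towards maternal, and none was called. The 2 were Rnf2 and Pcgf6, which is itself a targeted gene and is also among the 10. Rnf2, the catalytic RING1B subunit, stood at 47.1% and 53.9% in CTR and 61.3% and 59.4% in matKO (shift 0.54 ± 0.16, adjusted p = 0.573). L3mbtl2, a partner of PCGF6, stood at 35.2% and 32.8% against 38.4% and 48.0%. Of 12 PRC2 genes measured, 9 were members and 2 were higher, none lower; Aebp2 stood at 44.7% and 42.6% against 50.4% and 55.2%, and Rbbp4 at 47.1% and 47.0% against 49.6% and 54.9%, while the catalytic subunit Ezh2 overlapped. Of 17 members among DNA methylation genes 3 were lower and 5 higher. Zfp57, a zinc-finger protein that protects imprints, had 107 and 120 maternal reads in CTR and 54 and 43 in matKO, with 35 and 53 paternal reads against 50 and 37. Its paternal share of 24.6% and 30.6% stood against 48.1% and 46.2% (shift 1.18 ± 0.29, adjusted p = 0.488).

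The 60 ribosomal protein genes among the members had a median shift of 0.02. Of these 8 were lower and 13 higher, beside 15.3% and 23.4% of all members. Rpl27 stood at 73.9% and 75.5% against 81.4% and 80.5%, Rps15a at 64.6% and 62.5% against 67.3% and 74.6%, in a bin where matKO replicate 2 stood apart at a median of 70.5%, and Rpl3 at 43.9% and 32.9% against 26.5% and 23.8%. Of the cumulus and granulosa list, Serpine2 (54.9% and 60.6% against 72.0% and 67.9%) and Amhr2 were members. Amhr2 stood at 65% and 75.6% against 79.5% and 72.8%, so both were read mainly from the father's allele.

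Genes higher in knockout oocytes were compared with their allele ratio in morulae, since the oocyte libraries are separate from the morula libraries. Of 13459 genes tested in FGO, 720 rose (5.35%) and 251 fell (1.86%) in KO; among 6018 tested members 229 rose (3.81%) and 49 fell (0.814%). Of the 229 that rose, 27.9% had lower paternal shares in both matKO morula libraries, beside 15.3% of all members, and 18.8% had higher ones, beside 23.4%. At an unadjusted p under 0.05, 12.7% of them lay towards maternal and 3.06% towards paternal. Their median shift was -0.05, close to that of all members. The members that rose in oocytes and lay towards maternal included Sfmbt2, Bbx, Rbms1, Runx1 and Mael, and also Sfxn1, Asns, Zfp119b and Basp1.

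Bbx had 7.74 and 4.39 CPM in CTR oocytes and 43.0 and 35.4 in KO oocytes (adjusted p = 0.00154), and Rbms1 3.34 and 3.58 against 46.4 and 37.7 (adjusted p = 0.000116). Sfmbt2 had 0.11 and 0.038 CPM in CTR and 2.54 and 1.46 in KO (adjusted p = 0.00677). Hes1 also rose in oocytes (adjusted p = 0.00397) and overlapped in morulae, and Zdbf2 rose (adjusted p = 0.000226) and remained paternal in morulae. Sfxn1 rose in oocytes as well, from 1.36 and 0.894 to 5.68 and 6.72 (adjusted p = 0.00775), whereas its difference in morulae lay mainly on the paternal allele. In Basp1 and Zfp119b too the paternal reads were the lower ones in matKO morulae, with 47 and 42 against 5 and 8 in Basp1 and 38 and 34 against 5 and 10 in Zfp119b. Whether stored oocyte RNA contributes to maternal reads in morulae was not tested.

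Of 5050 members with enough reads in all 10 libraries, 14 (0.277%) had a shift that differed between morulae and ExE. A fit of the ExE libraries by themselves called 5 of 6102 genes (0.0819%). Such a call does not mean that morulae lacked the shift: Acaa2, one of them, had -0.57 in ExE and -0.55 in morulae. Sfxn1 and Asns were balanced in ExE: Sfxn1 had 48.5% and 48.5% paternal in CTR and 47.9%, 47.3%, 62.5% and 48.7% in matKO. The difference of the shifts was -2.16 ± 0.20 for Sfxn1 (adjusted p = 4.89e-06) and -1.38 ± 0.18 for Asns (adjusted p = 0.000664). Bbx, mainly paternal in CTR morulae, was near balance in ExE CTR at 52.9% and 61.9%, and its shifts differed by -2.51 ± 0.42 (adjusted p = 0.0129). Rab8a, Fam32a, Cope and Mcm5 of chromosome 8 were among the 14.

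Sfmbt2 was 99.6% to 99.8% paternal in 5 of the 6 ExE libraries and 51.5% in matKO replicate 4. Jade1 was at 80.4% and 74.5% in ExE CTR and at 45.5%, 60.7%, 58.4% and 42.1% in matKO, below CTR in 4 of 4 libraries, with a difference from the morula shift of 0.48 ± 0.53 (adjusted p = 0.914). Gab1 was at 86.9% and 79.3% in ExE CTR and at 64.1%, 79.9%, 57.6% and 43.9% in matKO, with overlap. Thoc1, the difference with the smallest p, was 96.6% and 98.3% paternal in ExE CTR and 46.4% to 62.9% in ExE matKO, and between 47.1% and 59.8% in all 4 morula libraries, so it differed in ExE CTR rather than in morulae. The ExE matKO library of replicate 3 had a paternal share of 64.9% over all autosomal genes, where the other 5 ExE libraries had 48.5% to 48.8%; without it, 13 genes differed between the stages, all of them among the 14.

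The rule for members had a threshold. The 179 members whose smallest library held 20 or 21 reads had median paternal shares of 45.2% and 50.0% in CTR and 47.1% and 50.0% in matKO, and the 168 genes at 18 or 19 reads had 50.0% and 45.7% against 52.0% and 47.8%. Below the threshold lay 16 of the 25 further H3K27me3 genes, among them Otx2 with 1 and 2 maternal reads in CTR and 0 and 3 in matKO, and E2f3 with 2 and 2 against 1 and 4, too few to compare.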

How the data were processed

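RNA-seq of polyadenylated RNA was deposited as whole-number read counts per gene, per the labels' protocols from SMART-Seq v4 and Nextera XT libraries, which do not mark strand. The authors deposited a maternal and a paternal count column for each morula and ExE library and a single count column for each FGO library. Per the submitters' processing notes the series used bcl2fastq 2.17, Trim Galore 0.6.4, Bowtie2 2.3.5, STAR 2.7.3, RSEM 1.3.1, MACS2 2.1.2, bedtools 2.26.0 and deepTools 3.3.1; which of them made the counts is not given in the sources used here, nor is the way reads were assigned to an allele. Reads that cover no difference between the parental strains cannot be assigned, so a gene listed at 0 may still be expressed.

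Allele shifts were fitted with edgeR 4.0.16 (quasi-likelihood, R 4.3.3) with terms for library, allele and allele by genotype, and with the autosomal total of each allele column as library size. The fit covered the 6445 autosomal genes with at least 20 allele reads in each of the 4 libraries. The morula against ExE difference was fitted in the same way, with added terms for stage. Levels of each allele and FGO genotype effects were fitted in edgeR with genotype as the only term. Their library sizes were scaled by TMM (trimmed mean of M-values) within the columns of that fit, and FGO genes were first filtered for low counts. Each fit was adjusted over all genes tested. The adjusted p threshold was 0.05. An SE is the log2 value divided by the root of its F statistic. For genes with few reads on an allele an exact conditional 95% interval or a floor of 3 reads over the group was used. Alternatives used limma 3.58.1 (on log2 ratios with a pseudocount of 0.5), DESeq2 1.42.0, other library sizes, read minimums and left-out libraries. Figures and summaries used Python 3.11.15 and scipy 1.17.1.

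On simulated counts for the 6445 genes, the allele-shift fit recovered 42% of 2-fold and 73% of 4-fold changes, with 19 false among 134 calls. Members and gene lists were chosen with earlier results of these data known. Genes were named by a rule: the 5 genes of the first H3K27me3 list, called imprinted genes, the called genes or those of smallest p in each direction, up to 3 of smallest p per list, Pcgf1 and Pcgf6, and the 5 smallest p of the stage difference. Other genes named in the text were chosen after their values were seen. Morula libraries of other crosses and chromatin data were not used here.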

Additional observations from a re-analysis of the deposited data

Results flagged for a closer look

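ExE matKO replicates 3 and 4 stood apart from the others of their group in some values by Dixon's test, which flags about 1 in 20 groups by chance. The paternal share of all autosomal allele reads was 64.866% in ExE matKO replicate 3, against 48.5% to 48.8% in the other 5 ExE libraries. In the same library Rab8a stood at 65.526%, Sfxn1 at 62.51% and Asns at 66.667%, each above the other 3 matKO libraries. Sfmbt2 stood at 51.458% in ExE matKO replicate 4, where the other 3 matKO libraries had 99.6% to 99.8%. The part of these libraries in the stage differences was not tested beyond leaving each out.

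The morula shift differed from the ExE shift in 14 genes by edgeR with Benjamini-Hochberg adjustment. Relative to ExE it was more towards paternal by a log2 difference of 5.118 for Thoc1, 4.114 for Slc30a2, 2.017 for Cope and 1.645 for Fam32a. The difference was 1.573 for Tmem37, 1.543 for Rab8a, 1.166 for Ppil3 and 1.042 for Mcm5. Thoc1 itself shifted by -0.26 in morulae and by -5.39 in ExE, and Slc30a2 by 2.81 and -1.28. Relative to ExE the morula shift was more towards maternal by -2.509 for Bbx, -2.381 for Basp1 and -2.366 for Gm20939. For Sfxn1, Asns and Tmem50b the difference was -2.158, -1.376 and -0.837.

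On the X chromosome, which the members leave out, the paternal share of allele reads was 37.893% and 42.264% in the matKO morula libraries. In the CTR morula libraries it was 24.7% and 25.9%. Within 1 genotype, the ExE matKO libraries ranged from 0.146% to 43.064%. The part of embryo sex in these shares was not tested.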

How the results depend on the processing

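The number of genes called depended on the test more than their direction did. Calls towards maternal, 0 in edgeR, numbered 3 with no read minimum, 2 with DESeq2's Wald test, 6 where ExE libraries shared the spread and 0 to 1 when a library was left out. Calls towards paternal, 1 in edgeR, numbered 9, 4 and 12 under the same 3 settings, 2 with X-linked genes added and 0 with limma; they were 0 without chromosome 8 from 65 to 90 Mb, 0 without the 9 uneven bins and 0 to 0 when a library was left out. Maternal level calls, 5 in edgeR, numbered 47 with DESeq2 and 0 to 4 with a library left out. Paternal level calls, 17 in edgeR, numbered 63 with DESeq2, 0 with the library size of both alleles and 0 to 108 with a library left out. FGO calls, 971 in edgeR, numbered 1629 with no filter on low counts and 759 to 2025 with a library left out.

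Replicates 1 of both morula groups deviated together with r = 0.142, but 2 pairs do not show that the numbers pair the samples; the uneven bins of chromosomes 11 and 12 were shared by same-numbered libraries. With the replicate number as a block there was 1 call towards maternal (Ptgr1) and 6 towards paternal (Lsm4, Tpm4, Cope, Rab8a, Fam32a and Mcm5), with 135 maternal level, 302 paternal level and 2014 FGO calls. Of the named genes' values, 1046 kept direction and side of the threshold, 24 passed it only under an alternative, 5 no longer passed and 2 turned: Impact ran from -0.734 to 0.06 and Thoc1 from -0.622 to 0.113 as a library was left out, the positive values without matKO replicate 2 and without CTR replicate 1. The cause was not tested. Stage-difference calls ran from 11 to 19. With a median of 113 to 162 reads per member and library, 2-fold shifts were often below what the test could call.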

Other observations

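Xist, the X-linked RNA that coats the inactive X chromosome, had 143 and 36 maternal reads in CTR morulae and 501 and 460 in matKO, beside 220 and 149 paternal reads against 237 and 261. It lies outside the autosomal members and was chosen after its values were seen, and the part of embryo sex in its reads was not tested. Among reported H3K27me3 genes with too few reads to be members, Mbnl2 had 26 and 16 paternal reads in CTR and 5 and 5 in matKO, with 2 maternal reads in 1 matKO library only. Sox21 had 2 and 9 maternal reads in CTR and 2 and 12 in matKO.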
